A study of Mus musculus with 4 samples.

Results

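The integrated stress response lets cells answer amino acid shortage, unfolded protein, viral RNA and heme deficit with 1 shared programme. Stress-sensing kinases phosphorylate the translation initiation factor eIF2, which lowers protein synthesis in general while the mRNA of the transcription factor ATF4 is translated more, through short reading frames ahead of its coding sequence. ATF4 then turns on genes for amino acid synthesis and uptake, for glutathione supply and, under lasting stress, for cell death. Because this control acts largely on translation, the amount of Atf4 mRNA need not follow the amount of ATF4 protein, and the transcripts of its targets are the usual readout of the pathway.

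The genes described here are 10 members of this response, chosen by name: Atf4 and its relative Atf5, the transcription factor gene Ddit3 (CHOP), the pseudokinase gene Trib3, the biosynthetic enzyme genes Asns, Psat1 and Phgdh, the stress-induced sestrin gene Sesn2, the cystine transporter gene Slc7a11 and the glutathione-degrading enzyme gene Chac1. All 10 had a probe set of their own, that is, a group of array probes annotated with that gene symbol alone, and each had exactly 1. They were 10 of the 19938 genes measured this way.

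Whole brains came from fetuses of the inbred mouse strain C57BL/6J, collected at embryonic day 16. Their dams received injections on gestational days 14 and 16, either 2.5 g of ethanol per kg in saline (ethanol group) or an equal volume of saline (control group), so both groups shared the handling and the injections. Each group comprised 2 pools with the RNA of 3 mice in each, and each pool was hybridised to 1 Affymetrix whole-transcript array, for 4 arrays and 12 mice in all. The sex of the fetuses is labelled unknown, and the sources used here do not name the litters behind each pool or the hours from last injection to collection. The p-values therefore measure the spread between these pools.

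The values are log2 brightness, so a difference of 1 stands for 2-fold. A probe set's brightness depends on its own probes, and levels are compared between arrays and not between genes. The arrays had lower quartiles of 6.45 to 6.55 and medians of 8.01 to 8.04. Markers of the labelled tissue were bright: over 10 neuronal genes the median level was 12.26 to 12.43, over 12 radial glia genes it was 10.92 to 11.06, and 0 of these 22 genes lay below the lower quartile on all arrays. The pools were unequal in other tissue. The summed linear brightness of 12 skeletal muscle genes was 20740 in control 1 and 2156 in control 2, beside 2243 in ethanol 1 and 7120 in ethanol 2. That of 12 pericyte and meningeal genes was 15127, 9261, 8628 and 10778 in the same order. In whole tissue, fewer cells of a type and less RNA per cell cannot be told apart.

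Several promoters of these genes carry the sequence through which ATF4, paired with a C/EBP factor, is known to act. The core of this C/EBP-ATF response element, TGATGNAA, was searched on both strands (TTNCATCA on the other) in RefSeq windows of 300 bases, from 250 bases before to 50 bases after a transcription start, in build GRCm38.p6. All 10 genes had at least 1 window, and 4 of their 12 windows held the core, against 3.97% of all 32851 windows. By gene this was 4 of 10, against 4.51% of 27025 genes. The genes were chosen as members of the ATF4 response, so the shares only describe the list. The 3 stretches below are shown because they hold the core ahead of the start, with the core in capitals. Each runs 5′ to 3′ along the strand of its gene.
Slc7a11 (chr3:50443620-50443719, minus strand): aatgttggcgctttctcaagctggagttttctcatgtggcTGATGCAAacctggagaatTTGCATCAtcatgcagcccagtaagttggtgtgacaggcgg
Chac1 (chr2:119351009-119351108, plus strand): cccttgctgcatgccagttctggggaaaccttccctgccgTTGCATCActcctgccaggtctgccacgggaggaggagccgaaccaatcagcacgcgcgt
Asns (chr6:7693210-7693309, minus strand): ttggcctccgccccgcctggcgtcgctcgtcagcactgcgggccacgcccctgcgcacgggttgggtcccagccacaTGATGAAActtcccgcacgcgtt

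Slc7a11 held 2 cores facing each other, with first bases at -66 and -47 from the start. Chac1 held 1 at -193 on the opposite strand and Asns 1 at -23 on the strand of the gene. In Trib3 the core began at base 15 after the start, and the windows of Atf4, Atf5, Ddit3, Psat1, Phgdh and Sesn2 did not contain these letters. A match describes the letters and is no measured binding site. A window without a match leaves open bases farther from the start and variants of the core, which were not searched.

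**Figure D1:**
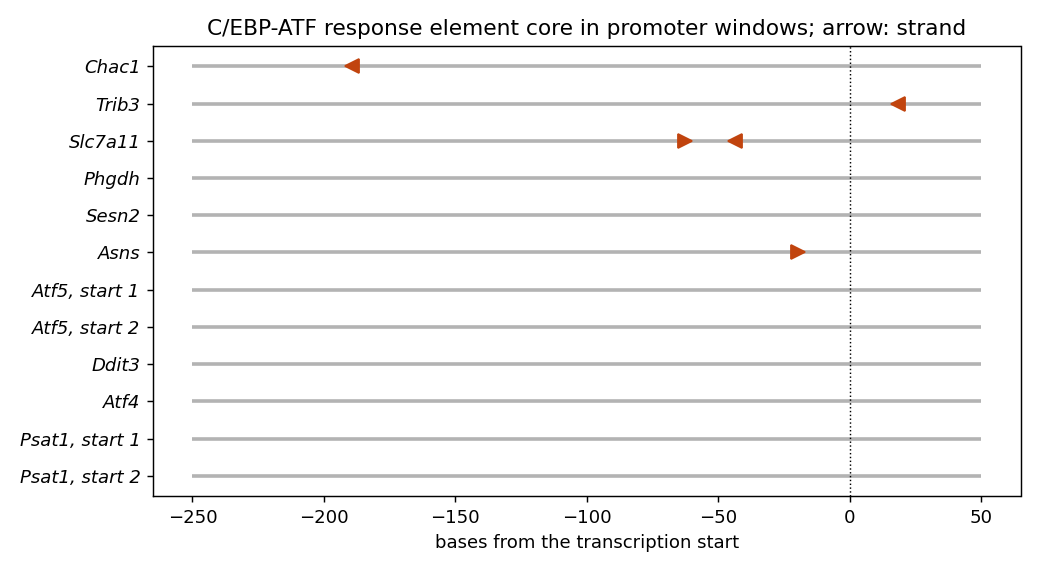
Promoter windows of the 10 genes, drawn from 250 bases before to 50 bases after the transcription start (dotted line), with an arrow for each response element core pointing along its strand. Slc7a11 is the one gene with 2 cores, and Chac1, Asns and Trib3 have 1 each.

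The comparison of ethanol with control pools asks whether this programme differs in the fetal brain after acute exposure. None of the 10 genes passed the test. Limma is a linear model that draws each gene's own variance toward a value shared across genes, below called the shared variance. It called 0 of the 10 at a Benjamini-Hochberg adjusted p under 0.05, where the share called among all 19938 genes was 0%. Its smallest adjusted p for a member was 0.98. At an unadjusted p under 0.05 it also called 0 of the 10, against 2.94% (587) of all genes. With a fold of at least 1.2 required as well, 0 of the 10 passed, against 1.02% of all genes. The log2 differences of the members (ethanol minus control) ran from -0.24 to 0.14, with 4 above and 6 below 0, and the signs of Atf4 and Phgdh turned under other scalings, as did that of Sesn2 under median centring. Their median was -0.012, beside 0.009 over all genes, and the median of their sizes was 0.044, beside 0.061.

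**Figure D2:**
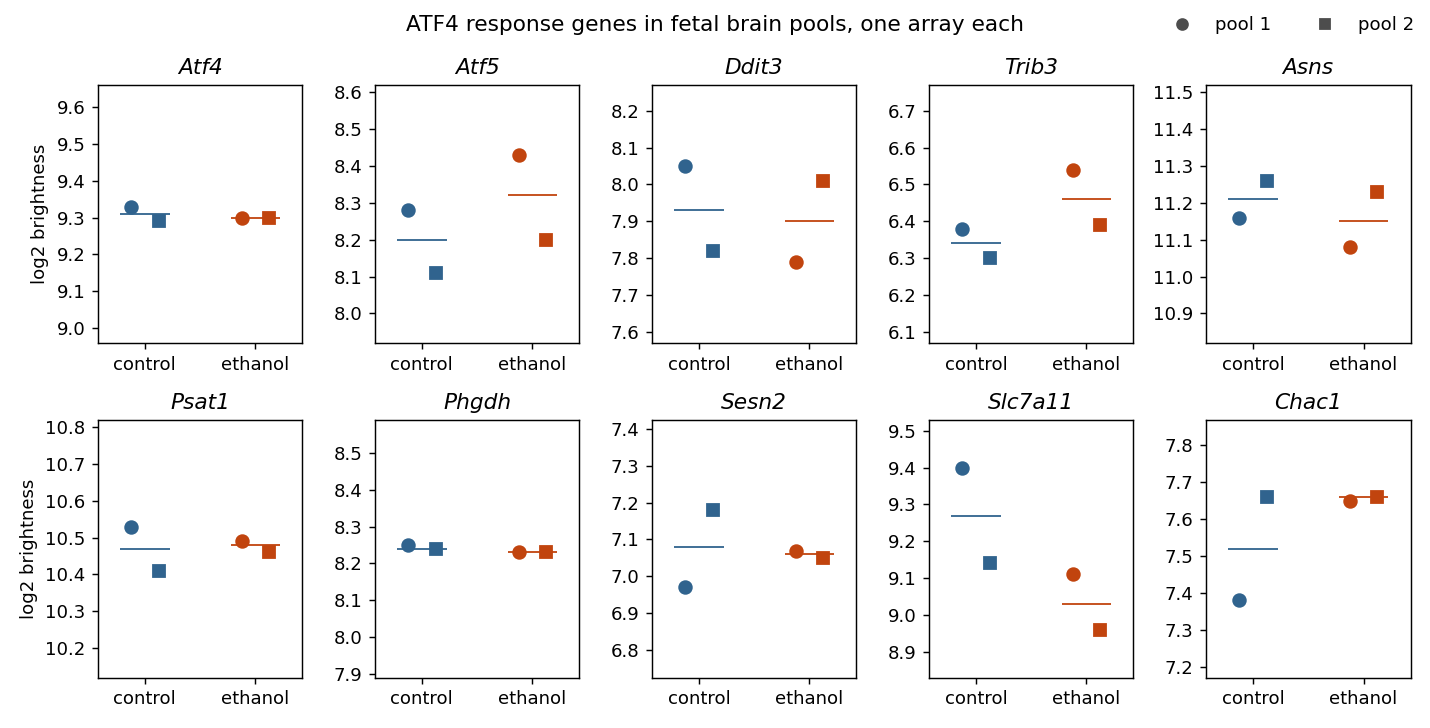
Log2 brightness of the 10 genes on each array, control pools in blue and ethanol pools in orange, pool 1 as circles and pool 2 as squares, with a line at each group mean. Every panel spans the same 0.7 log2 units, so the flat profiles of Atf4 and Phgdh can be set against the wider ones of Slc7a11 and Atf5.

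Atf4, the central factor, was nearly the same in every pool. Its log2 level was 9.33 in control 1, 9.29 in control 2 and 9.30 in both ethanol pools. The ethanol values lay between the 2 control values, and the whole range was 0.037, a spread as small as or smaller than this being found in 1.62% of all genes. The log2 difference was -0.011 ± 0.066 (SE, 2 arrays per group, adjusted p = 0.997). Its 95% interval reached from 11.4% lower to 11.1% higher in ethanol.

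Atf5, a related factor that is likewise controlled through its translation, had log2 levels of 8.43 and 8.20 in the ethanol pools and 8.28 and 8.11 in the control pools. Ethanol 1 was the highest pool and control 2 the lowest, with the other two in between and the groups overlapping. The difference was 0.12 ± 0.11 (SE, log2, adjusted p = 0.98), while the 2 ethanol pools were 0.23 apart from each other. It came to 0.006 without ethanol 1 and 0.032 without control 2, and to 0.231 without ethanol 2 and 0.205 without control 1. Atf5 overlaps Nup62 and Il4i1b in the gene table, and the sources used here do not say whether its probes separate these genes.

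Ddit3 encodes CHOP, a factor that ATF4 induces and that promotes cell death when stress lasts. It read 8.05 in control 1 and 7.82 in control 2, beside 7.79 in ethanol 1 and 8.01 in ethanol 2 (log2). One pool of each group was high and the other low, so the groups overlapped fully. The difference between groups was -0.035 ± 0.115 (SE, log2, adjusted p = 0.993), against gaps of 0.23 and 0.22 within them. Ethanol 2 and control 1, the pools with more Ddit3 signal, also had the higher skeletal muscle and pericyte and meningeal sums given above. The summed brightness of 5 erythroid genes was higher in them too, at 2110 and 2525, against 1523 in ethanol 1 and 1405 in control 2. Over all genes, arrays of the same number deviated from their group means with a correlation of -0.484. The part of these differences in the Ddit3 values was not tested. Ddit3 overlaps Mbd6 and Mars1 in the gene table.

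Trib3, a pseudokinase that ATF4 and CHOP induce and that in turn restrains ATF4, stood at log2 levels of 6.54 and 6.39 in the ethanol pools and 6.38 and 6.30 in the control pools. Both ethanol values were above both control values, by 0.01 at the nearest pair, an order that was lost after renewed quantile normalization. The difference was 0.12 ± 0.08 (SE, log2, adjusted p = 0.98). It was 0.072 after that normalization, 0.044 without ethanol 1 and 0.201 without ethanol 2. Trib3 was the one member below the lower quartile on all 4 arrays, at the dim end of the measured range.

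The 3 enzyme genes of amino acid synthesis did not pass the test. Asns makes asparagine and is a standard marker of the amino acid branch of the response. Its log2 level was 11.08 and 11.23 in ethanol and 11.16 and 11.26 in control. The groups overlapped, and the difference was -0.053 ± 0.083 (SE, log2, adjusted p = 0.98).

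Psat1 catalyses the second step of serine synthesis. It stood at 10.49 and 10.46 in ethanol and 10.53 and 10.41 in control (log2), so both ethanol pools fell between the control pools. The difference was 0.009 ± 0.075 (SE, log2, adjusted p = 0.997).

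Phgdh, the first enzyme of serine synthesis, known in the brain as an enzyme of radial glia and astrocytes, was the flattest member. Its log2 level was 8.23 in both ethanol pools, 8.25 in control 1 and 8.24 in control 2. Both ethanol values lay below both control values, an order that was lost after median centring or renewed quantile normalization. The whole range was 0.023, a spread that small being found in 0.476% of all genes, and the difference was -0.014 ± 0.065 (SE, log2, adjusted p = 0.997). Small as it was, this difference was larger than the gap within either group. A further probe set, annotated to Phgdh and to the pseudogene Gm6756 together and therefore not used for the gene, was less flat. It read 9.69 and 9.79 in ethanol and 9.91 and 9.75 in control, with overlapping groups.

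Sesn2, a sestrin that restrains mTORC1 when leucine is short and that ATF4 induces, stood at 7.07 and 7.05 in ethanol and at 6.97 and 7.18 in control (log2). The ethanol pools were close together and lay between the control pools. The difference was -0.017 ± 0.089 (SE, log2, adjusted p = 0.997).

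The glutathione-related pair showed the larger values, in opposite directions. Slc7a11 encodes xCT, which brings cystine into the cell in exchange for glutamate and so feeds glutathione synthesis. It answers to ATF4 and to NRF2, and in the brain it is known from astrocytes and from the meninges. It read 9.40 in control 1 and 9.14 in control 2, beside 9.11 in ethanol 1 and 8.96 in ethanol 2 (log2).

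Both ethanol pools were below both control pools, by 0.03 at the nearest pair (ethanol 1 and control 2) and by 0.45 at the farthest (ethanol 2 and control 1). The difference was -0.24 ± 0.11 (SE, log2), a ratio of 0.848 with a 95% interval of 0.70 to 1.03, and it did not pass the test (unadjusted p = 0.0811, adjusted p = 0.98). The gap between the 2 control pools was 0.26, larger than the difference between groups. Slc7a11 also varied more over the 4 arrays than most genes, 95% of which had a range as small or smaller.

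Control 1, the pool highest in Slc7a11, was highest as well in the summed pericyte and meningeal genes and in all 12 of them singly, whereas ethanol 2, the lowest in Slc7a11, was second highest in that sum. The meningeal gene Ptgds, one of the 12 and named here after its values were seen, was lowest in ethanol 2, with log2 levels of 11.13 and 10.89 in ethanol and 11.45 and 11.42 in control. Rgs5 and Aldh1a2 were lowest in ethanol 2 as well, and Anpep was lowest in ethanol 1. The rest of the list went the other way. Pdgfrb, Col1a1, Col1a2, Col3a1, Dcn, Lum, Foxc1 and Col4a1 were second highest in ethanol 2, as the sum was. The summed brightness of 8 endothelial genes was 6650 in control 1 and 5506 in control 2, beside 5286 in ethanol 1 and 5453 in ethanol 2. Both ethanol pools were thus below both control pools there, as in Slc7a11 and Ptgds. Control 1 was highest in 7 of these 8 genes, and the median of their log2 differences was -0.162, with 0 passing the adjusted test. The part of these markers in the Slc7a11 values was not tested. Without control 1 the log2 difference was -0.105, and without control 2 it was -0.37 (unadjusted p = 0.0142, adjusted p = 0.547).

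Chac1 encodes a gamma-glutamyl cyclotransferase that degrades glutathione and is a strong target of ATF4. Its log2 level was 7.65 and 7.66 in the ethanol pools and 7.38 and 7.66 in the control pools. Control 1 alone was low, and control 2 equalled both ethanol pools to within 0.01. The difference of 0.14 ± 0.11 (SE, log2, adjusted p = 0.98) thus rested on control 1, without which it came to -0.001. Without control 2 it was 0.275 (unadjusted p = 0.0305, adjusted p = 0.652).

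**Figure D3:**
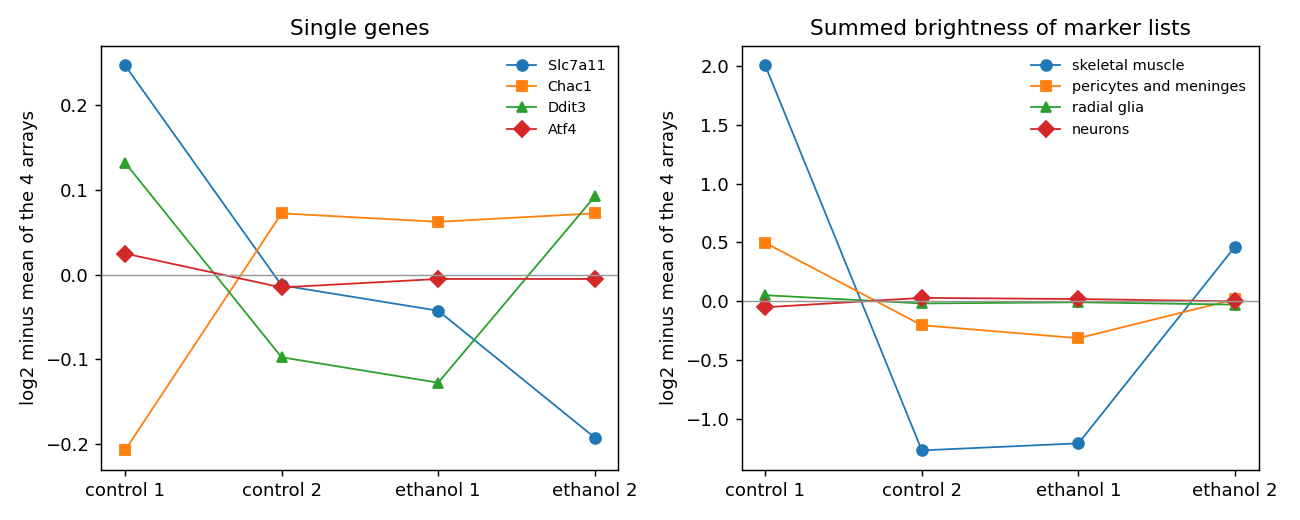
Left, log2 level of 4 genes on each array minus that gene's mean over the 4 arrays. Right, the same for the log2 summed brightness of 4 marker lists, on a wider axis. Control 1 is highest for Slc7a11, for skeletal muscle and for pericyte and meningeal genes and lowest for Chac1, while Atf4, radial glia and neuronal genes stay near 0.

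By single arrays, then, 3 of the 10 genes had groups that did not overlap, against 31.4% of all genes. Ethanol was higher in 1 of them (Trib3), against 17.4% of all genes, and lower in 2 (Phgdh and Slc7a11), against 14%. These shares are near the background. The difference between groups exceeded both gaps within groups in 1 of 10 genes, Phgdh, against 19% of all genes. Control 1 was the highest array for 5 members and ethanol 1 for 2, while over all genes these arrays were highest in 26.8% and 40.2%.

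Under the model with a shared variance, the intervals bound what these arrays could have missed. For 5 genes (Atf4, Asns, Psat1, Phgdh and Sesn2) the 95% interval lay inside a 1.2-fold change in both directions. For 7 the upper bound was below 1.2-fold higher, these 5 together with Ddit3 (1.19) and Slc7a11 (1.03). The upper bound of the other 3 was 1.30 for Atf5, 1.26 for Trib3 and 1.32 for Chac1. The intervals rest on 2 arrays a group and on variances drawn toward the shared value, and they describe ratios of brightness as deposited. Asns was near the limit, with a lower bound of 0.836. Without the shared variance there are 2 degrees of freedom instead of 5.65, which widens an interval at the same SE. The SE (log2) was then 0.0866 for Asns, 0.0638 for Psat1, 0.102 for Sesn2, 0.0185 for Atf4 and 0.00645 for Phgdh. Intervals of that fit are not given here, so the 1.2-fold bounds above hold only under the shared variance.

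**Figure D4:**
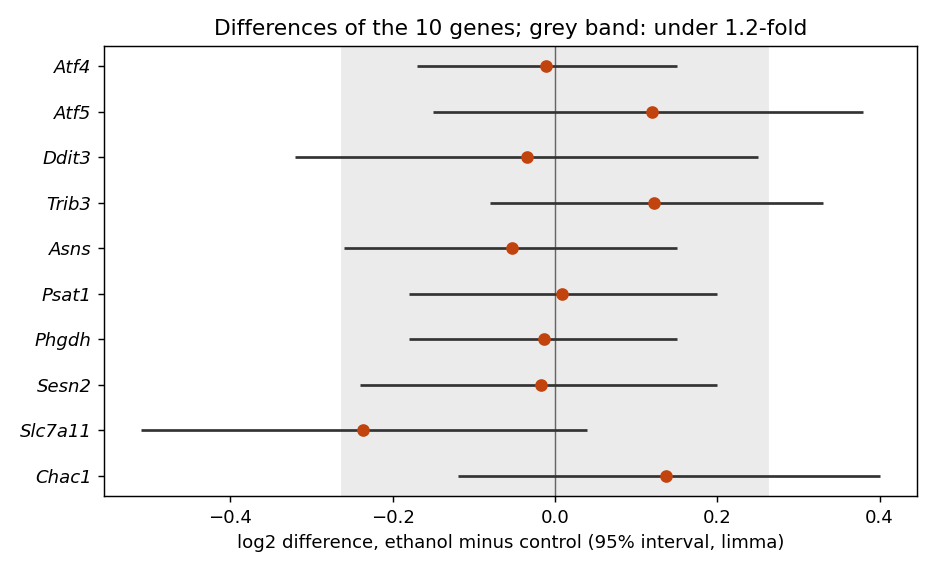
Log2 difference of ethanol minus control for each of the 10 genes (points) with its 95% interval from limma (lines), 2 arrays per group. The grey band marks changes under 1.2-fold, and all 10 intervals include 0.

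Genes upstream and around the response did not pass the test either. Of 100 measured genes in 6 lists, 0 passed an adjusted p under 0.05, 3 (Jund, Ddit4 and Syvn1) had an unadjusted p under 0.05, against 2.94% of all genes, and 0 also reached a 1.2-fold change. The count of 3 was 0 with the replicate number as a block, so all 3 were lost there. It was 1 when all probe sets were tested, 5 after renewed quantile normalization, 6 without a shared variance, 5 without ethanol 2 and 6 without control 2. Both ethanol pools were above both control pools in 11 of the 100 and below them in 24, beside the 17.4% and 14% of all genes given above. After median centring of the arrays these counts were 16 and 10, and after renewed quantile normalization 15 and 19. The balance of directions thus moved with the scaling, and that over all 19938 genes moved too. Both ethanol pools were above both control pools in 3463 of all genes and below them in 2789 as deposited. These counts were 3531 and 2068 after median centring, and 3338 and 2989 after renewed quantile normalization. Whether the lists differ from all genes in this balance was not tested.

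The kinases that start the response differed little between groups. Eif2ak1 (HRI, which senses heme) had a log2 difference of 0.016 ± 0.084 (SE), and Eif2ak2 (PKR, which senses double-stranded RNA) stood at -0.059 ± 0.068. Eif2ak3 (PERK, the sensor in the endoplasmic reticulum) stood at -0.044 ± 0.074, and Eif2ak4 (GCN2, which senses uncharged tRNA) at -0.082 ± 0.065. Eif2ak2 lay below the lower quartile on 3 of the 4 arrays.

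For Eif2ak4 the log2 levels were 9.51 and 9.50 in ethanol and 9.60 and 9.57 in control, so the groups did not overlap. The same held for its coactivator Gcn1, with 9.18 and 9.23 in ethanol against 9.36 and 9.31 in control (-0.133 ± 0.068, SE, adjusted p = 0.98). Impact, the inhibitor of GCN2 that is abundant in neurons, was level at -0.006 ± 0.070.

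Among the genes of eIF2B, the exchange factor that phosphorylated eIF2 blocks, Eif2b4 alone was above 0. Eif2b5 stood at -0.159 ± 0.072 (SE, log2, adjusted p = 0.98), Eif2b3 at -0.108 ± 0.067 and Eif2b1 at -0.050 ± 0.068. In these genes both ethanol pools were below both control pools, barely so in Eif2b1. Eif2b2 stood at -0.010 ± 0.119 and Eif2b4 at 0.060 ± 0.070, with overlapping groups. The phosphatase subunits that end the response, Ppp1r15a (GADD34, itself induced by stress) and Ppp1r15b, stood at 0.009 ± 0.096 and -0.012 ± 0.072. Over the 16 genes of this list 4 were above and 12 below 0, with a median of -0.047 that came to -0.013 after renewed quantile normalization. It was -0.020 without control 1 and -0.031 without ethanol 1, but -0.091 without control 2 and -0.072 without ethanol 2. Both ethanol pools were above both control pools in 0 of the 16 and below them in 6, against 17.4% and 14% of all genes.

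Among 21 other partners and targets of stress factors, 10 were above and 11 below 0, with a median of -0.003 that ran from -0.010 to 0.037 with an array left out and was 0.025 after renewed quantile normalization. Their smallest p-values belonged to Jund, a subunit of AP-1, and Ddit4, an inhibitor of mTORC1. Jund read 9.29 and 9.23 in ethanol and 9.00 and 9.07 in control, a log2 difference of 0.226 ± 0.071 (SE, unadjusted p = 0.0202, adjusted p = 0.98). Ddit4 read 8.59 and 8.70 against 8.49 and 8.32, a log2 difference of 0.238 ± 0.088 (unadjusted p = 0.0376, adjusted p = 0.98). In both genes the groups were apart, by 0.16 for Jund and 0.10 for Ddit4 at the nearest pools. Over the 21 genes, both ethanol pools were above both control pools in 4 and below them in 2, against 17.4% and 14% of all genes. Stc2, a secreted glycoprotein induced by stress, stood at 0.096 ± 0.071.

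The remaining lists held the working parts of the programme. Of 13 genes of serine, glycine, proline and one-carbon synthesis, 4 were above and 9 below 0 (median -0.053). This median was -0.024 after renewed quantile normalization and -0.036 after median centring, and with an array left out it ran from -0.024 (without ethanol 2) to -0.045 (without ethanol 1). The smallest p-values there were those of Cth, which makes cysteine from cystathionine (-0.123 ± 0.084, SE, log2), Aldh18a1, an entry enzyme of proline synthesis (-0.093 ± 0.072), and Aldh1l2, a mitochondrial folate enzyme (-0.066 ± 0.066). Of 13 amino acid transporters, 5 were above and 8 below 0 (median -0.033, but -0.009 without control 2, -0.019 after renewed quantile normalization and -0.016 after median centring). The smallest p-values there belonged to the neutral amino acid carriers Slc1a4 (-0.120 ± 0.077, SE, log2) and Slc38a3 (-0.102 ± 0.071) and to Slc43a1 (0.090 ± 0.071), which was dim on all 4 arrays. Differences of greater size but wider error, with overlapping groups, were those of Slc1a5 and Slc7a3, both named here after their values were seen (-0.201 ± 0.174 and 0.133 ± 0.124).

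Of 18 cytosolic aminoacyl-tRNA synthetases, which charge tRNAs and are a known ATF4 target class, 6 were above and 12 below 0. Their median was -0.045, but -0.012 without ethanol 1, -0.082 without ethanol 2, -0.014 after renewed quantile normalization and -0.028 after median centring. The phenylalanine enzyme subunit Farsa stood at 0.145 ± 0.066 (SE, log2, adjusted p = 0.98), the methionine enzyme Mars1 at -0.160 ± 0.086 and the glutamine enzyme Qars at -0.114 ± 0.078. In these 3, named for the smallest p-values of their list, the groups did not overlap, in differing directions. Over all 18, both ethanol pools were above both control pools in 2 and below them in 5. The shares among all genes were 17.4% and 14%.

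Of 19 genes of the other branches of the endoplasmic reticulum stress response, 7 were above and 12 below 0 (median -0.034). Syvn1, a ubiquitin ligase of the degradation machinery, stood at 0.168 ± 0.066 (SE, log2, unadjusted p = 0.0457, adjusted p = 0.98), the co-chaperone Dnajb9 at 0.167 ± 0.076 and the chaperone Hyou1 at -0.125 ± 0.079. Hspa5 (BiP), the main chaperone of that compartment, named here after its values were seen, read 11.51 in control 1 and 11.23 in control 2, beside 11.19 in ethanol 1 and 11.39 in ethanol 2 (log2). As with Ddit3, 1 pool of each group was high and 1 low. Subtracting control 1 from ethanol 1 gave a list median of -0.111, and control 2 from ethanol 2 one of 0.049. The list median of -0.034 became 0.026 without control 1 and -0.10 without control 2. It was 0 without ethanol 1, -0.016 without ethanol 2 and -0.017 after either other scaling.

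**Figure D5:**
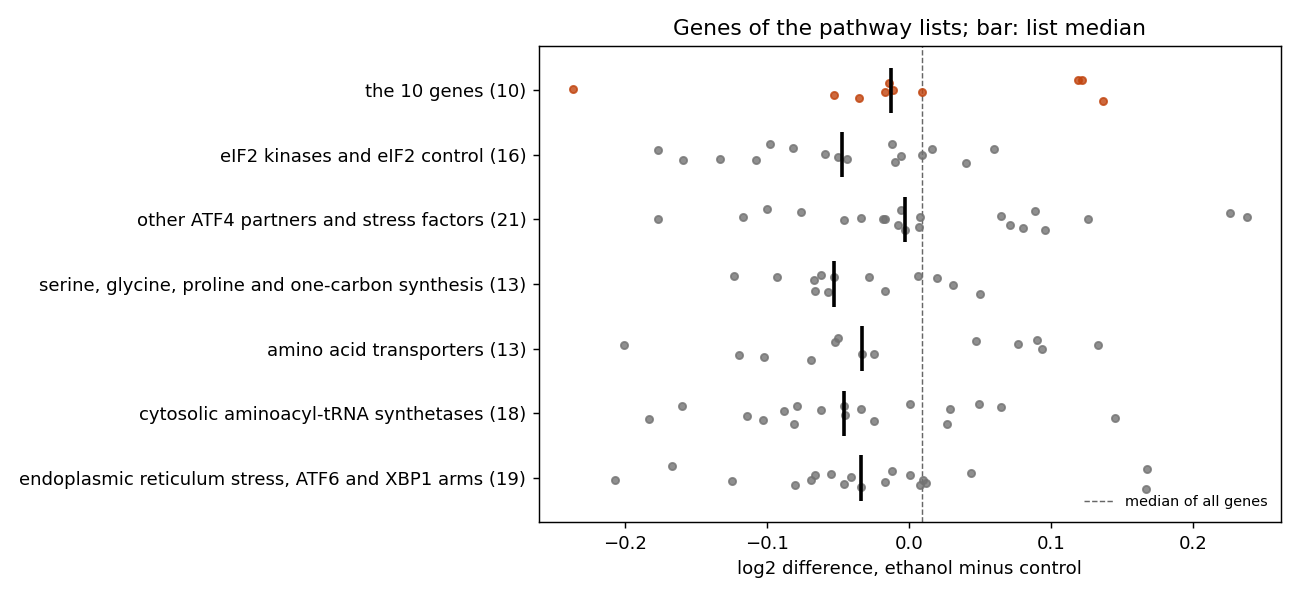
Log2 difference of ethanol minus control for the 10 genes (orange) and for each gene of 6 pathway lists (grey), with the number of measured genes in brackets, a black bar at each list's median and a dashed line at the median of all genes (0.009). List medians lie between -0.053 and -0.003.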

How the data were processed

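The table holds 1 value for each of 35556 probe sets on each of 4 arrays. The authors deposited log2 values. Their log base was inferred from the range. The submitters' processing notes name Partek 6.6, and the sources used here do not say how background was corrected or arrays were normalized. Probe sets with 1 gene symbol in the platform annotation (21789, against 1621 with several and 12146 with none) were kept. Older symbols were replaced by matching Entrez identifiers to RefSeq genes of GRCm38.p6 (21698 matched), and keeping the brightest set per gene left 19938 genes.

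The groups were tested in R 4.3.3 with limma 3.58.1, using eBayes without trend, two-sided, adjusted over all 19938 genes, with 2 residual and 5.65 total degrees of freedom. The fit was also run on simulated arrays with known changes and independent errors, as a check of the code. Those arrays held no tissue differences between pools, so the run does not bear on them, and its recovery rates are not given here. An exact permutation test of 2 against 2 arrays cannot go below p = 0.333 and was not used. The members, the 6 pathway lists (105 genes, 100 measured) and the marker lists were chosen with earlier results of these data known. Named were all members, any gene of the eIF2 list and, from each other list, the 3 genes with the smallest p and any at an unadjusted p under 0.05 and a fold of at least 1.2. Replicate numbers come from the titles and are not said to pair the arrays. Alternatives were other probe set rules, scalings, filters and variance models, a replicate block and leaving out each array.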

Additional observations from a re-analysis of the deposited data

How the results depend on the processing

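With 2 arrays a group, each value rests on 4 arrays, and the scale of the deposited values is inferred. No member and no gene of the pathway lists passed an adjusted p under 0.05 in any setting tried, the smallest adjusted p of a member being 0.547. Of 96 member differences under other settings with all arrays, 91 kept their direction and 5 turned it. Renewed quantile normalization gave 0.024 for Atf4 and 0.008 for Phgdh, and median centring gave 0.006 for Atf4, 0.003 for Phgdh and 0.00013 for Sesn2. With 1 array left out, 8 of 40 turned. The ranges were -0.029 to 0.008 for Atf4, -0.149 to 0.079 for Ddit3, -0.123 to 0.018 for Asns, -0.053 to 0.071 for Psat1, -0.118 to 0.084 for Sesn2 and -0.001 to 0.275 for Chac1. The other 4 kept their sign, with ranges of 0.006 to 0.231 for Atf5, 0.044 to 0.201 for Trib3, -0.020 to -0.009 for Phgdh and -0.37 to -0.105 for Slc7a11. The 3 members with groups apart became 1 (Slc7a11) after renewed quantile normalization and 4 to 8 with an array left out, where fewer arrays have to separate. Over all 19938 genes, 6327 were apart after that normalization and 11642 to 14832 with an array left out. The 0 members at an unadjusted p under 0.05 and a 1.2-fold change stayed 0 except without control 2, where there were 2 (Slc7a11 and Chac1). For the pathway lists that count went from 0 to 1 (Ddit4, 0.271) after renewed quantile normalization and to between 1 and 5 with an array left out.

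Of all 19938 genes, 203 met that rule. Of all 35556 probe sets, with or without a gene symbol, 993 did so. The gene count was 134 among only those brighter than the median gene, 37 without a shared variance and 3 at a fold of 1.5. It ranged from 142 (without ethanol 1) to 1265 (without control 2). The groups did not overlap in 6252 genes (31.4% of 19938), in 11200 of the 35556 probe sets and in 3466 of the brighter genes alone. With an array left out they did not overlap in 11642 to 14832 of the 19938 genes. The totals behind these counts differ, so a change in count is not by itself a change in share. Arrays of the same number deviated from their group means with a correlation of -0.484. In the fit with a replicate block, the log2 difference of Slc7a11 was -0.237 (unadjusted p = 0.0475, adjusted p = 1), and 0 members were called. With crossed pairing, chosen after the data were seen, 0 members were called and 373 genes met the looser rule.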

Other observations

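The response element core of the promoter windows was also looked up in the pathway lists. Of their 100 measured genes 78 had a window, and 12 of these held the core, against 4.51% of all genes. The lists were chosen around the ATF4 response, so this share only describes them. The 12 genes were Atf3, Nupr1, Vldlr, Fgf21, Herpud1, Pck2, Got1, Slc1a4, Gars, Iars, Tars and Yars. Their log2 differences ran from -0.18 (Tars, ± 0.147 SE) to 0.13 (Fgf21, ± 0.111 SE), with a median of -0.026 and 4 above 0. Iars, which is 1 of these 4, stood at 0.029 on its brightest probe set and at -0.123 on a dimmer one. The 66 genes whose windows lacked the core had a median of -0.034, with 26 above 0. Both ethanol pools were below both control pools in 3 of the 12 (Herpud1, Got1 and Slc1a4) and above them in 0. Among the 66 they were below in 14 and above in 10, and over all genes the shares were 14% and 17.4%. This look-up was made after the values of the lists were known, and the difference between these sets of genes was not tested.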
